A study of Mus musculus with 4 samples.

Results

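Ifng, the gene for interferon gamma, and 5 chemokine genes that recruit lymphocytes (Cxcl9, Cxcl10, Ccl5, Ccl20 and Ccl28) were examined in inflamed mouse colon with and without Elf4. They are 6 of the 4121 genes in the deposited table, taken by gene symbol. They had been grouped because all were lower in the knockout, so that direction is a description here and was not tested. RNA sequencing was done on the distal colon of C57BL/6 mice at 8 weeks of age, at day 6 of 3% DSS (dextran sulfate sodium), which damages the lining of the colon and is used to provoke colitis. There were 2 wild-type samples and 2 samples from mice lacking Elf4, an Ets family transcription factor. Both genotypes carried the DSS injury, and no sample without DSS was analysed here. The sources used here do not say which cells lost Elf4, which part of the gene was removed, or whether each sample was a separate animal.

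The table gives 1 FPKM value per gene and genotype (fragments scaled to transcript length and library size), for genes that the authors called differentially expressed. No value per sample, SD or read depth can therefore be given, and every q below is from the authors' deposited table. Of the listed genes, 2141 were lower and 1980 higher in the knockout. Elf4 itself went to 3.51 from 16.4 FPKM, which left 21.4% of the wild-type value. Of 18 epithelial marker genes 18 were listed, all of them detected in both genotypes, as colon tissue should show, and their summed level went to 1123 from 12029 FPKM.

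Interferon gamma is a cytokine made mainly by T cells, natural killer (NK) cells and other innate lymphoid cells. It binds a receptor of Ifngr1 and Ifngr2 chains and starts a signal to the nucleus that switches on Irf1, antigen presentation genes and the chemokine genes Cxcl9 and Cxcl10. The proteins Cxcl9 and Cxcl10 attract activated T and NK cells that carry the receptor Cxcr3. Ccl5 attracts T cells, eosinophils and monocytes, with Ccr3 and Ccr1 among its receptors. Ccl20 is made by epithelium over lymphoid follicles and by inflamed epithelium, and it attracts cells with Ccr6. Ccl28 is a mucosal epithelial chemokine that attracts IgA-producing plasma cells through Ccr10.

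The sequences upstream of 4 of the genes are shown because these genes were lower together and because their promoters differ in the letters tied to interferon and NF-kB signalling. Each run is the 250 bases before the RefSeq start site on GRCm38.p6, read along the gene. RefSeq promoters were matched for 5 of the 6 genes, and Ccl5, without a match, was not searched. Capitals mark matches, on either strand, to TTCNNNGAA (the form of a GAS element, the interferon gamma activated site), GAAANNGAA (a short form of the interferon-stimulated response element, ISRE) or GGNNNTTCC (a short form of the NF-kB site, kB). The windows are Cxcl9 at chr5:92328080-92328329 on the minus strand, Cxcl10 at chr5:92348890-92349139 on the minus strand, Ccl20 at chr1:83116516-83116765 on the plus strand and Ifng at chr10:118440796-118441045 on the plus strand.
Cxcl9: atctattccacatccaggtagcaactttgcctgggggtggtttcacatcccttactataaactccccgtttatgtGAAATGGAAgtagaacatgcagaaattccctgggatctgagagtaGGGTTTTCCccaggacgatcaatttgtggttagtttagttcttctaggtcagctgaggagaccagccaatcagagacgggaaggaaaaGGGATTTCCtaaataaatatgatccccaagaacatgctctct
Cxcl10: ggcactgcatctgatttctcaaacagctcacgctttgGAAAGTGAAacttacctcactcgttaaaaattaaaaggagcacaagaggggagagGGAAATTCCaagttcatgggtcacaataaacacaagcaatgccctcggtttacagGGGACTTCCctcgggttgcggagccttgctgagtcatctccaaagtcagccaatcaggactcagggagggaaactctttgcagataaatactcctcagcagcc
Ccl20: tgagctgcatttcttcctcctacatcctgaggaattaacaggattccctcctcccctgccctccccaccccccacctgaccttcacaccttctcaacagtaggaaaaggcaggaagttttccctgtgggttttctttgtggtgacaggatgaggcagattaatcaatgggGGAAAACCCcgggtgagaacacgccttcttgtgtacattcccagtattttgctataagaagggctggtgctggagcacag
Ifng: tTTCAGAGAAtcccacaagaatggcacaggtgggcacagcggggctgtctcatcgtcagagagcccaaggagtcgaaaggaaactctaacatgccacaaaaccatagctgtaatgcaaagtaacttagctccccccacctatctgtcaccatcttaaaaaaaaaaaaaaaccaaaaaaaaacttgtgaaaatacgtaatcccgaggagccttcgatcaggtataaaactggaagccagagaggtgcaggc

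The neighbouring genes Cxcl9 and Cxcl10 each held 1 ISRE form and 2 kB forms. In Cxcl10 these were at bases -213 to -205 from the start site for the ISRE form and at -158 to -150 and -103 to -95 for the kB forms, the first of which reads as a match on both strands. In Cxcl9 the ISRE form was at -175 to -167 and the kB forms at -130 to -122 and -42 to -34. Ccl20 held 1 kB form, on the opposite strand at -80 to -72, and Ifng 1 GAS form, at -249 to -241. None of these 3 forms was in the Ccl28 window, chr13:119623569-119623818 on the plus strand, and CCGGAAG, a core preferred by many Ets factors, was in none of the 5 windows. Over all 32807 RefSeq windows of this length, the GAS form was present in 7.02%, the ISRE form in 7.12%, the kB form in 15.7% and the Ets core in 6.91%. The motifs were cut to at most 9 letters after longer forms had been searched, so the search was not fixed beforehand. These matches describe letters and not bound sites.

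Ifng was a gene of low abundance in the inflamed tissue, and little of it was left without Elf4. Ifng (ENSMUSG00000055170, chr10:118441046-118445892, plus strand) was at 4.51 FPKM in wild type, against 0.272 FPKM in the knockout, 16.6-fold less, so that 6.02% remained (q = 0.0204, the authors' deposited table). The call does not pass a q of at most 0.01. Its wild-type level stood at the 33.1 percentile of listed genes and its knockout level at the 3.49 percentile. Low values carry larger counting error, and the depth behind this one is unknown. The annotated Ifng locus overlaps 1 other annotated gene on the same strand, Gm49751, so its reads could be shared. In bulk tissue, fewer cells of a type and less RNA per cell cannot be told apart, here and for every gene below.

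The Cxcr3 ligands Cxcl9 and Cxcl10 lie side by side, with start sites 20.8 kb apart, and both were lower to different extents. Cxcl9 (ENSMUSG00000029417, chr5:92321347-92328079, minus strand) was at 51.3 FPKM in wild type, against 3.07 FPKM in the knockout, a 16.7-fold difference. Cxcl10 (ENSMUSG00000034855, chr5:92346638-92348889, minus strand) was at 103.7 and 27.8 FPKM, a 3.73-fold difference (q = 0.000372 for both, the authors' deposited table). The ratio of Cxcl9 to Cxcl10 thus went from 0.494 to 0.110. The Cxcl10 value is less certain, because its locus in the table, chr5:92331827-92414628, is that of Art3, a gene on the opposite strand that also spans Cxcl11. Cxcl11 is annotated as a polymorphic pseudogene in this reference, although its intact form encodes another Cxcr3 ligand. The sources used here do not say whether the library kept strand, and neither Art3 nor Cxcl11 was listed.

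Ccl5 was the most abundant of the 5 chemokine genes in both genotypes and kept the largest share of its level. Ccl5 (ENSMUSG00000035042, chr11:83525778-83530518, minus strand) was at 246 FPKM in wild type, against 103.4 FPKM in the knockout, 2.38-fold less, so that 42.0% remained (q = 0.000372, the authors' deposited table). Its level stood at the 95.0 percentile of listed genes in wild type and the 92.0 percentile in the knockout.

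The epithelial chemokines differed from each other. Ccl28 (ENSMUSG00000074715, chr13:119623819-119654359, plus strand) was at 35.0 FPKM in wild type, against 1.67 FPKM in the knockout, a 20.9-fold difference and the largest of the 6 genes (q = 0.000372, the authors' deposited table). Ccl20 (ENSMUSG00000026166, chr1:83116766-83119167, plus strand) was at 9.36 and 2.99 FPKM, a 3.14-fold difference (q = 0.0238, the authors' deposited table). The call for Ccl20, like that for Ifng, does not pass a q of at most 0.01. The ratio of Ccl28 to Ccl20 went from 3.74 in wild type to 0.561 in the knockout, as values without a spread.

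**Figure D1:**
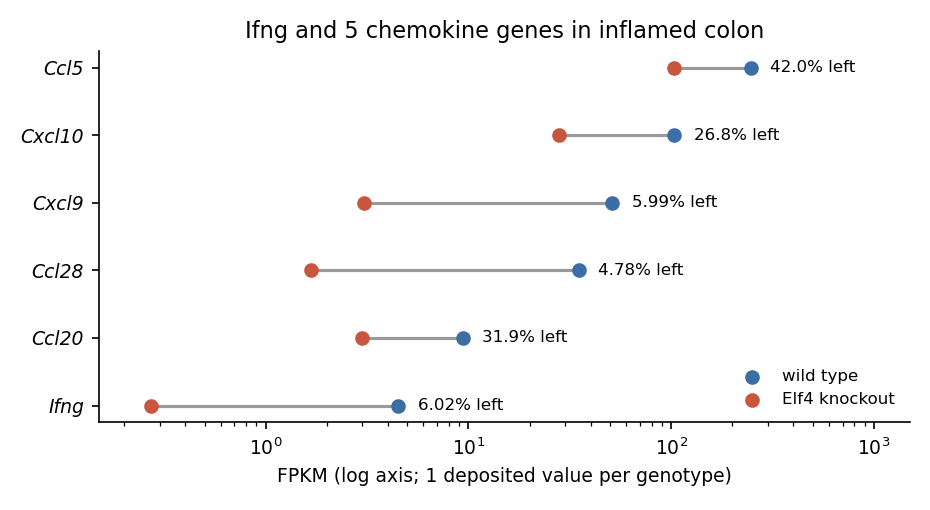
Levels of Ifng and the 5 chemokine genes in FPKM on a log axis, with 1 deposited value per genotype (blue, wild type; red, Elf4 knockout) and the percent of the wild-type value left. Ccl28, Cxcl9 and Ifng kept between 4.78% and 6.02%, while Cxcl10, Ccl20 and Ccl5 kept between 26.8% and 42.0%.

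By fold of the FPKM values, the losses fell into an upper and a lower range. In Ccl28, Cxcl9 and Ifng the difference was 16.6-fold to 20.9-fold, and in Cxcl10, Ccl20 and Ccl5 it was 2.38-fold to 3.73-fold. On the log2(FPKM + 1) scale, which shrinks low values, Ifng left the upper range: the log2 ratio was -3.75 for Ccl28, -3.68 for Cxcl9, -2.12 for Ifng, -1.86 for Cxcl10, -1.38 for Ccl20 and -1.24 for Ccl5. All 6 were lower in the knockout, beside 52.0% of all listed genes, and 3 of the 6 were lower by at least 4-fold, beside 24.5% of all listed genes. The genes were chosen on this contrast, so nothing is read from these counts. Among the 2096 lower genes with a value above 0 in the knockout, the fold ranked 73 for Ccl28, 125 for Cxcl9, 128 for Ifng, 1042 for Cxcl10, 1264 for Ccl20 and 1724 for Ccl5. The lowest fold, that of Ccl5, lies above 2, the smallest fold in the table (rounded to 3 decimals). The levels in wild type ran, from high to low, Ccl5, Cxcl10, Cxcl9, Ccl28, Ccl20 and Ifng. In the knockout the order was Ccl5, Cxcl10, Cxcl9, Ccl20, Ccl28 and Ifng, with Cxcl9 and Ccl20 close together at 3.07 and 2.99 FPKM. Without a spread between samples, it cannot be said which neighbours in these orders differ.

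The make-up of the chemokine transcripts shifted with these unequal losses. The summed level of the 5 chemokine genes was 446 FPKM in wild type, against 139 FPKM in the knockout, which left 31.2%. Ccl5 made up 55.3% of that sum in wild type and 74.4% in the knockout. Cxcl9 went from 11.5% to 2.21% and Ccl28 from 7.86% to 1.20%. Cxcl10 went from 23.3% to 20.0%, and Ccl20 was near 2.10% in wild type and 2.15% in the knockout.

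**Figure D2:**
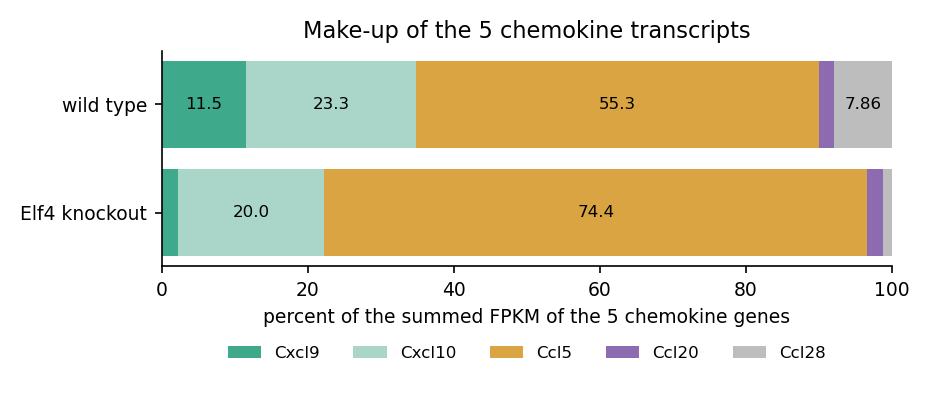
Percent of the summed FPKM of the 5 chemokine genes that each gene contributed, in wild type and in the Elf4 knockout (1 deposited value per gene and genotype). The share of Ccl5 was 55.3% and 74.4%, and that of Cxcl9 11.5% and 2.21%.

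Genes that promote interferon gamma production moved both ways. Of 18 such genes 6 were listed, 3 lower and 3 higher, beside 52.0% lower over all listed genes. Their median log2 ratio was 0.08 (knockout over wild type, on the log2(FPKM + 1) scale), beside -0.76 over all listed genes. Tbx21, which encodes T-bet, the transcription factor that drives Ifng in T and NK cells, fell to 0.407 from 2.14 FPKM (q = 0.00238, the authors' deposited table). Il18, a cytokine gene of epithelium and macrophages whose product induces Ifng, fell to 13.6 from 249 FPKM (q = 0.000372, the authors' deposited table). The table locus of Il18 is 1.96 times the annotated length, just under the limit of 2 for an uncertain locus. The receptor chain gene Il18r1 (picked once its values were known) fell to 1.27 from 3.67 FPKM (q = 0.00335, the authors' deposited table). The other chain gene, Il18rap, rose to 13.5 from 3.81 FPKM (q = 0.000372, the authors' deposited table). Il12a, for a subunit of interleukin-12, rose to 2.76 from 0.531 FPKM, and Il15ra, which presents interleukin-15, rose to 31.7 from 13.2 FPKM (q = 0.0198 and 0.000372, the authors' deposited table). The median of this list changes sign with the pseudocount, so it gives no direction.

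The listed genes of the interferon gamma receptor and its signalling moved both ways. Of 8 receptor and signalling genes 4 were listed, 3 lower and 1 higher, beside 52.0% lower over all listed genes. Their median log2 ratio was -1.33, beside -0.76 over all listed genes, with q = 0.000372 for each in the authors' deposited table. The receptor chain gene Ifngr2 fell to 23.5 from 47.9 FPKM. Irf1, a transcription factor gene of the interferon response, fell to 49.96 from 162 FPKM, and Socs1, the feedback inhibitor of this pathway, to 12.8 from 42.9 FPKM. Ptpn2, a phosphatase that acts on Jak and Stat proteins, rose to 71.5 from 30.3 FPKM. Ifngr1, Jak1, Jak2 and Socs3 were not listed and are not analysed here.

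Genes that interferon gamma is known to induce were mostly lower as well. Of 38 such genes, the chemokines not counted, 25 were listed, 22 lower and 3 higher, beside 52.0% lower over all listed genes, and their median log2 ratio was -1.56. The tryptophan-degrading enzyme gene Ido1 fell to 6.49 from 60.9 FPKM and Ubd, for a ubiquitin-like protein, to 15.7 from 132 FPKM. Gbp2b, a guanylate-binding protein gene, fell to 0.796 from 6.30 FPKM (q = 0.000372 for these 3 genes, the authors' deposited table). The immunoproteasome gene Psmb10 fell to 43.0 from 224 FPKM and the GTPase gene Tgtp1 to 5.79 from 29.2 FPKM (q = 0.000372 and 0.00564, the authors' deposited table). The table loci of both are far wider than the annotated genes, so both values are uncertain. The fold ran from 2.48 to 4.17 over 7 genes of class II and its loading. The highest of these was Ciita, named after its values were seen. The range was 2.54 to 7.92 over 7 induced GTPase genes and 2.13 to 5.22 over 4 proteasome and peptide transport genes. The table loci of 4 of these 7 GTPase genes and of all 4 proteasome and transport genes are shared or wider than the gene, so these ranges are uncertain. The loci of the genes of class II and its loading are neither, but 2 are much shorter than the gene. Those of H2-DMa and H2-Ab1, named after their values were seen, span 0.200 and 0.529 of the annotated length. The 3 that rose, named after their values were seen, were Serping1, a complement inhibitor gene (264 to 625 FPKM), Fcgr1, a high-affinity Fc receptor gene (9.72 to 22.6 FPKM), and Icam1, an adhesion gene (28.2 to 62.6 FPKM). Their q was 0.000372 for Serping1 and Icam1 and 0.0186 for Fcgr1 in the authors' deposited table.

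None of the 22 lower genes of that list, which ran from 2.13-fold to 9.39-fold, reached the 16.7-fold of Cxcl9, whereas the 3.73-fold of Cxcl10 lay close to their median of 3.48-fold. Genes of the type I and type III interferon response overlap with this programme. Of 22 such genes 5 were listed, 4 lower and 1 higher, beside 52.0% lower over all listed genes, with medians of -1.54 and -0.76 for the log2 ratio. Zbp1, a nucleic acid sensor gene, fell to 54.3 from 225 FPKM, Oas1a, for an antiviral enzyme, to 14.6 from 61.1 FPKM, Ifit2 to 17.8 from 53.8 FPKM and Oasl2 to 51.5 from 109 FPKM (q = 0.000372 for each, the authors' deposited table). Ifnar2, a receptor chain gene for type I interferon, rose to 78.3 from 35.1 FPKM (q = 0.0352, the authors' deposited table).

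The receptors that read the 5 chemokines did not move together. Of 7 receptor genes 4 were listed, 1 lower and 3 higher, beside 52.0% lower over all listed genes. Cxcr3, the receptor of Cxcl9 and Cxcl10 on activated T and NK cells, fell to 2.63 from 11.3 FPKM, a 4.30-fold difference. Ccr1 rose to 66.9 from 17.1 FPKM and Ccr3, the eosinophil receptor of Ccl5 and Ccl28, to 4.85 from 0.948 FPKM (q = 0.000372 for these 3 genes, the authors' deposited table). Ackr1, which binds chemokines on venules and red cells without signalling, rose to 85.8 from 23.7 FPKM (q = 0.00852, the authors' deposited table), and its table locus is shared with other listed genes, so its value is uncertain. Ccr6, Ccr10 and Ackr2 were not listed and are not analysed here.

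**Figure D3:**
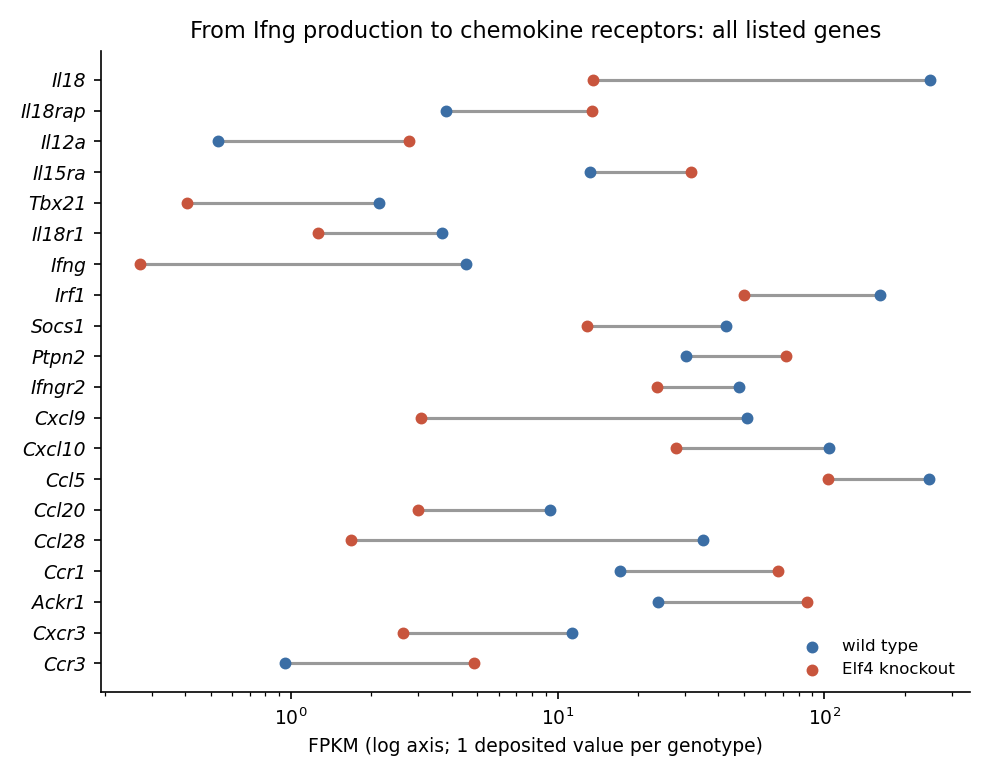
Levels in FPKM on a log axis of every listed gene of interferon gamma production, of Ifng, of receptor and signalling genes, of the 5 chemokine genes and of their listed receptors, with 1 deposited value per genotype (blue, wild type; red, Elf4 knockout). Ifng, Cxcl9 and Ccl28 span the widest gaps beside Il18, and the red point lies to the right for Il18rap, Il12a, Il15ra, Ptpn2, Ccr1, Ackr1 and Ccr3.

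Most other listed chemokine genes went the opposite way. The table lists 20 chemokine ligand genes, 14 higher and 6 lower, beside 48.0% higher and 52.0% lower over all listed genes. The 5 members were grouped because they were lower, so their split from the rest partly follows from that choice. Of the 15 outside the set 1 was lower. That gene was Cx3cl1, a membrane-bound chemokine that attracts cytotoxic lymphocytes and monocytes, which fell to 5.80 from 22.4 FPKM. Of 15 other lymphocyte-attracting chemokines 4 were listed, Cx3cl1 and 3 that rose. Ccl3 and Ccl4, inflammatory CC chemokine genes, rose to 39.2 from 4.58 FPKM and to 41.4 from 9.61 FPKM. Cxcl13, the B cell attractant of lymphoid follicles, rose to 410 from 120 FPKM. In the authors' deposited table these 4 genes had q = 0.000372.

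Of 15 chemokine genes that attract neutrophils, monocytes or eosinophils 11 were listed and all 11 rose, with a median log2 ratio of 3.09, beside 48.0% higher over all listed genes. For wild type their sum was 454 FPKM, near the 446 FPKM of the 5 lymphocyte-attracting genes. Without Elf4 these sums were 3927 and 139 FPKM. The first includes Ccl2, named after its values were seen, and the second Cxcl10. The table loci of both are wider than the gene, so both sums are less certain. The 5 genes were grouped because they were lower, and the other list was chosen with earlier results known. The opposite direction of the sums therefore partly follows from that choice and was not tested. The classes also overlap, since Ccl5, 55.3% of the 446 FPKM, attracts eosinophils and monocytes as well as T cells. Cxcl2, Cxcl3 and Cxcl1, which act on neutrophils, rose 46.9-fold, 41.7-fold and 15.2-fold. The platelet chemokine genes Ppbp and Pf4 rose 68.6-fold (0.584 to 40.1 FPKM) and 12.2-fold (33.7 to 412 FPKM), with q = 0.000372 for these 5 genes in the authors' deposited table.

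**Figure D4:**
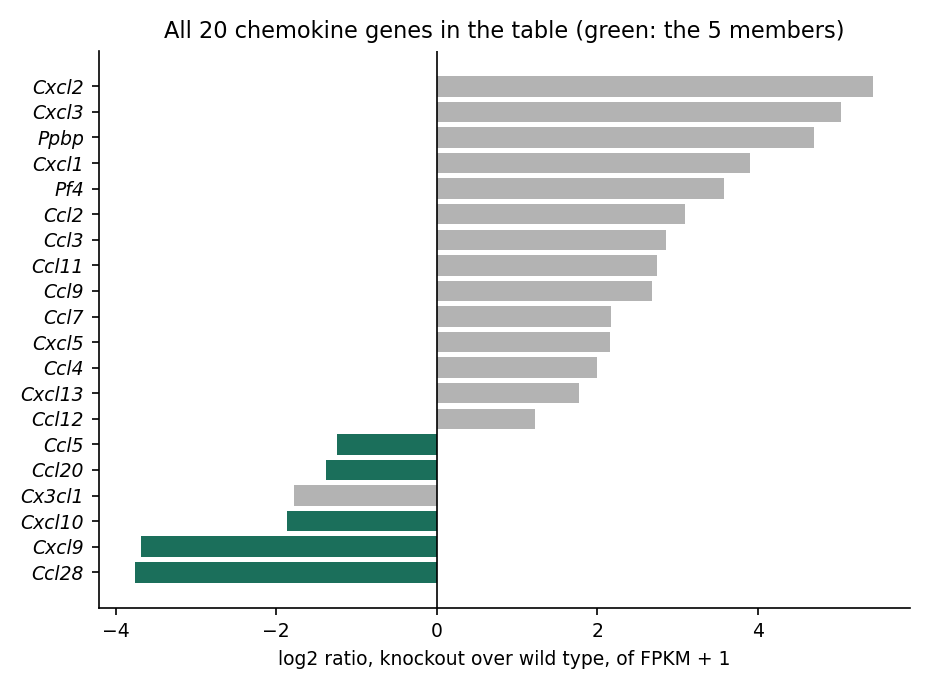
Log2 ratio of knockout over wild type, computed from FPKM + 1, for the 20 chemokine ligand genes in the table (green, the 5 members; grey, the others). The bars to the left of 0 are the 5 members, which were grouped because they were lower, and Cx3cl1. The 14 others lie to the right.

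Some chemokine genes that went opposite ways lie on the same chromosome, close together near Ccl5 and far apart near Cxcl9. On chromosome 11, the start of Ccl5 lies 48.1 kb from that of Ccl9, 119 kb from that of Ccl3 and 132 kb from that of Ccl4, and these 3 genes rose 6.68-fold, 8.56-fold and 4.30-fold. The Ccl9 values, chosen after they were seen, were 18.7 and 125 FPKM. On chromosome 5, Cxcl9 starts 20.8 kb from Cxcl10, which was also lower. It starts 1424 kb from Cxcl2 and 1569 kb from Cxcl5, the near and far ends of a cluster of neutrophil and platelet chemokine genes. All 6 listed genes of that cluster (Cxcl2, Cxcl1, Cxcl3, Pf4, Ppbp and Cxcl5) rose, by 4.49-fold to 68.6-fold, beside 48.0% higher over all listed genes. These 6 are among the 11 genes counted above, whose list was chosen with earlier results known, so this is not a separate result.

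Lymphocytes make Ifng and Ccl5 and carry Cxcr3. Of 31 T, NK and innate lymphoid cell markers 17 were listed, 15 lower and 2 higher, beside 52.0% lower over all listed genes. The median of their log2 ratios was -1.24. Their summed level went to 124 from 285 FPKM, which left 43.6%, and none of the 17 was listed at 0. The cytotoxic granule gene Gzma fell to 12.3 from 55.3 FPKM, Cd3g, a chain of the T cell receptor complex, to 5.16 from 22.1 FPKM, Trbc1, a T cell receptor constant segment, to 6.87 from 24.3 FPKM and Itgae, an integrin gene of lymphocytes in the epithelium, to 1.05 from 5.74 FPKM. Ctla4, an inhibitory receptor gene of activated and regulatory T cells, rose to 26.4 from 5.45 FPKM. In the authors' deposited table q was 0.000372 for these 5 genes. Il7r, chosen after its values were seen, was the other that rose, to 10.3 from 5.13 FPKM (q = 0.0065, the authors' deposited table).

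The largest fall among these 17 markers was 5.47-fold, for Itgae, beside 16.6-fold for Ifng. The 2.38-fold of Ccl5 and the 4.30-fold of Cxcr3 lay within the range of the falling markers, 2.09-fold to 5.47-fold. The part that lymphocyte markers have in the level of Ifng, Ccl5 or Cxcr3 was not tested.

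Of the 18 epithelial markers all 18 were lower, by 2.60-fold to 19.4-fold, with a median of 11.6-fold and 9.34% of their summed level left, beside 52.0% lower over all listed genes. The keratin genes Krt19 and Krt8 fell to 86.3 from 1672 FPKM and to 144 from 2335 FPKM, the intestinal transcription factor gene Cdx1 to 6.25 from 104 FPKM and the lectin gene Lgals4 to 196 from 2431 FPKM. Elf3, an epithelial Ets factor gene, fell to 18.0 from 235 FPKM, and its table locus is wider than the gene. In the authors' deposited table q was 0.000372 for these 5 genes. The 20.9-fold of Ccl28 lay just above the range of the epithelial markers and the 3.14-fold of Ccl20 near its lower end. The part of epithelial markers in either value was not tested. Of 16 macrophage and dendritic cell markers, cells that also make Cxcl9 and Cxcl10, 4 were listed. Itgam, Cd14 and Cd68 rose to 90.5 from 14.1 FPKM, to 273 from 86.5 FPKM and to 111 from 42.4 FPKM (q = 0.000372 for each, the authors' deposited table). Clec9a, a marker of cross-presenting dendritic cells, fell to 0.692 from 2.25 FPKM (q = 0.0164, the authors' deposited table).

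**Figure D5:**
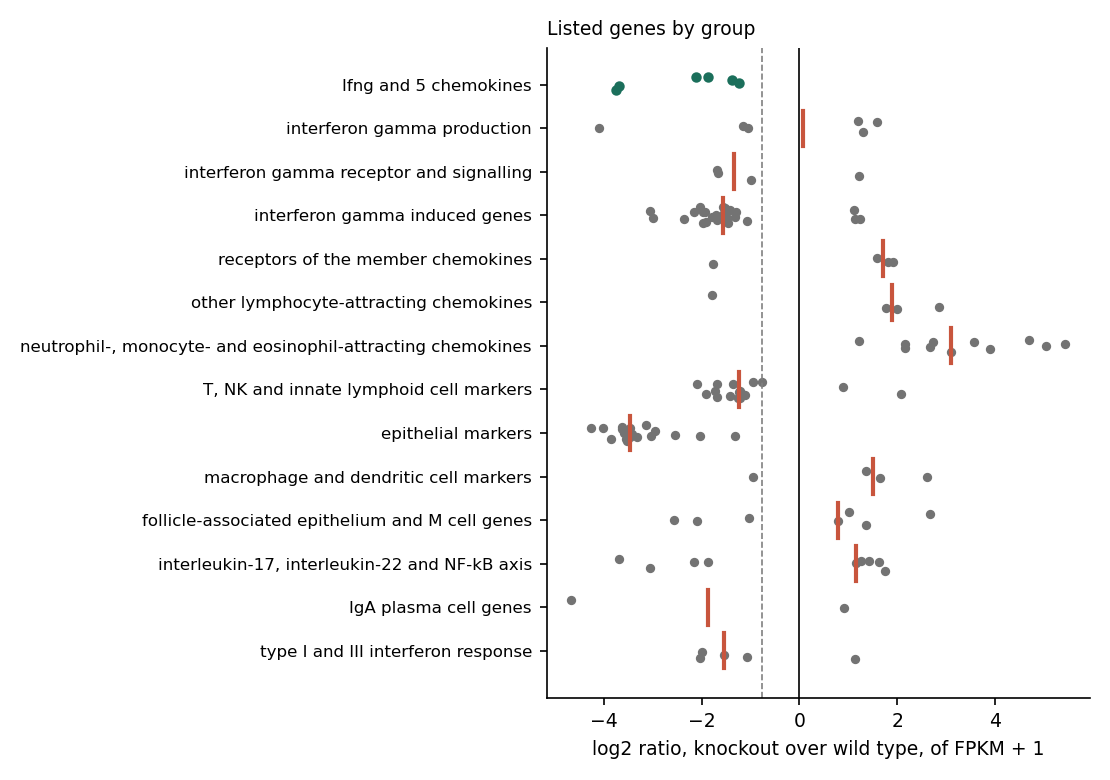
Log2 ratio of knockout over wild type, from FPKM + 1, for each listed gene (points) of the 6 members (green) and of 13 gene groups (grey), with the group median as a red bar and the median of all 4121 listed genes, -0.76, as a dashed line; points are spread vertically for legibility. All 18 epithelial markers lie below 0 and all 11 neutrophil-, monocyte- and eosinophil-attracting chemokines above it.

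Genes of the cells and signals tied to Ccl20 and Ccl28 moved both ways, and their counts stand beside 52.0% lower over all listed genes. Of 9 genes of M cells and the epithelium over follicles, a source of Ccl20, 7 were listed, 3 lower and 4 higher. Tnfrsf11a, the receptor that starts M cell differentiation, fell to 6.25 from 29.8 FPKM, Spib, a transcription factor gene of M cells, to 6.66 from 14.7 FPKM and Pglyrp1, for a peptidoglycan-binding protein, to 119 from 712 FPKM. Tnfaip2 rose to 90.9 from 35.0 FPKM, as did Ccl9, given above, and Gp2, an M cell receptor gene chosen after its values were seen, rose to 1.54 from 0.467 FPKM. The q was 0.00312 for Spib, 0.0278 for Gp2 and 0.000372 for Tnfrsf11a, Pglyrp1, Tnfaip2 and Ccl9 in the authors' deposited table. Of 16 genes of the interleukin-17, interleukin-22 and NF-kB axis, which induces Ccl20 in epithelium, 9 were listed, 4 lower and 5 higher. The epithelial receptor genes Il17rc and Il22ra1 fell to 15.4 from 72.2 FPKM and to 2.31 from 11.0 FPKM, and the antimicrobial lectin genes Reg3g and Reg3b to 12.4 from 171 FPKM and to 41.5 from 351 FPKM. Il1b rose to 262 from 77.6 FPKM (q = 0.000372 for these 5 genes, the authors' deposited table), and Il17a, chosen after its values were seen, to 2.64 from 0.355 FPKM (q = 0.0164, the authors' deposited table). The receptor gene Il17ra rose as well, to 21.4 from 9.06 FPKM (q = 0.00753, the authors' deposited table). So did Nfkbia and Tnfaip3, to 253 from 80.6 FPKM and to 74.4 from 30.3 FPKM (q = 0.000372 for both, the authors' deposited table). Il17ra, Nfkbia and Tnfaip3 were chosen after their values were seen. Ccl28 attracts IgA plasma cells. Of 9 genes of these cells and of IgA transport 2 were listed. The transport gene Pigr, for the receptor that moves IgA into the lumen, fell to 23.0 from 606 FPKM, a 26.4-fold difference. Pigr is not a plasma cell gene. Prdm1, a plasma cell transcription factor gene also used by other cells, rose to 11.3 from 5.55 FPKM (q = 0.000372 for Pigr and 0.00288 for Prdm1, the authors' deposited table).

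The listed genes with values most like each member were found by distance in the plane of log2(FPKM + 1) in wild type and knockout, that is, over 2 values. Nearest to Ifng was Rab17 (4.61 and 0.260 FPKM), a vesicle transport gene, followed by Gm8979. Cxcl9 was nearest to Esrp1 (49.1 and 3.33 FPKM), an epithelial splicing factor gene, and Ap1m2, for an epithelial sorting adaptor. For Ccl28 these were Akr1c19 and the intestinal homeobox gene Isx (32.5 and 1.67 FPKM). Ccl20 was nearest to Dpp4 (9.32 and 3.03 FPKM), a peptidase gene, and Thnsl2, Cxcl10 to Tmem50b and the integrin gene Itga6, and Ccl5 to the mitochondrial genes Atp5f1 and Uqcr11. Of these, Gm8979, Esrp1 and Atp5f1 have table loci that are shared or wider than the gene. Distances ran from 0.02 to 0.14 log2 units, and with 2 values such likeness is common in a table of this size.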

How the data were processed

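RNA was sequenced from 2 wild-type and 2 Elf4 knockout colon samples with a Vazyme mRNA kit, per the labels' protocols. The deposited table holds 1 FPKM value per gene and genotype and, per the file headers, the p-value and q-value of the authors' own comparison. The sources used here do not give how samples were combined. The submitters' processing notes name Bowtie 0.12.2, Cufflinks 2.2.1 and mm8 with no roles. However, 99.98% of the 4116 gene identifiers found in GENCODE M21 overlapped their GRCm38 position, so GRCm38 coordinates from GENCODE are printed. With 1 value per genotype, no test or error could be computed, and rose and fell rest on the authors' call.

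Folds were computed from FPKM and log2 ratios from FPKM + 1. The members and the 13 gene lists (222 symbols, 115 listed) were chosen with earlier results of these data known. Named genes were the 6 members, every listed gene of a list with 5 or fewer, otherwise the 5 with the largest log2 ratio at 1 FPKM or more, and the 2 nearest genes of each member. Some listed genes are not reported here. Any other gene is marked as chosen with its values known. A locus was called uncertain when over 2 times the annotated length or shared, and not when shorter than the gene. Motifs were cut to at most 9 letters after longer forms had been searched. Counts, medians and distances were tested on simulated data. Alternatives were stricter q, fold and FPKM limits, pseudocounts, centring and omission of uncertain loci. Python 3.11.15, numpy 2.4.6, pandas 2.3.3 and matplotlib 3.10.9 were used.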

Additional observations from a re-analysis of the deposited data

How the results depend on the processing

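No paired analysis was possible because each genotype has 1 combined value. Leaving out each sample could not be run either, so the weight of any 1 sample is unknown. Shifts over 1.5 times were counted as a change. With at least a 4-fold difference, 3 members were lower, as were 1011 listed genes, and 533 were higher, fewer by construction. With q of at most 0.01, 4 members were left, without Ifng and Ccl20, and with at least 5 FPKM 5 were left, without Ifng. The log2 ratio of Ifng was -3.63 with a pseudocount of 0.1 and -4.05 with none, and that of Ccl28 was -4.39 with none, since a pseudocount shrinks low values. Centring on the table median of -0.76 shifted every value up by that amount and turned none. It gave -1.36 for Ifng, -2.93 for Cxcl9, -1.11 for Cxcl10, -0.49 for Ccl5, -0.62 for Ccl20 and -2.99 for Ccl28. The centred list medians were 0.84 for interferon gamma production, -0.57 for its receptor and signalling, -0.80 for its induced genes, 2.46 for the chemokine receptors, 2.64 for other lymphocyte-attracting chemokines and 3.85 for the neutrophil, monocyte and eosinophil chemokines. They were -0.48 for lymphocyte markers, -2.70 for epithelial markers, 2.27 for macrophage and dendritic cell markers, 1.55 for M cell genes, 1.91 for the interleukin-17 axis, -1.12 for IgA genes and -0.79 for type I and III interferon genes. The IgA median comes from only 2 genes that went opposite ways, Pigr and Prdm1, so it gives no direction. The median of the production list was 1.20 when genes needed 5 FPKM in the higher genotype and -0.10 when the pseudocount was 0.1. The same 5 FPKM minimum gave an M cell median of -0.015 and an interleukin-17 axis median of -0.35, because fewer genes remained. Leaving out uncertain loci, an alternative chosen after seeing the data, left 5 members, without Cxcl10, all lower, and moved none of the 13 list medians by over 1.5 times.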

Other observations

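Other genes within 250 kb of the members moved in both directions. Near Ccl5, the whey acidic protein family genes Wfdc17 and Wfdc21 rose to 449 from 183 FPKM and to 80.1 from 5.54 FPKM, while Wfdc18, which lies between them, fell to 36.5 from 225 FPKM (q = 0.000372 for each, the authors' deposited table). Rasl10b, a Ras-like gene, rose to 4.37 from 0.809 FPKM (q = 0.000372, the authors' deposited table). Near Ccl28, Hmgcs1, a cholesterol synthesis gene, fell to 35.2 from 121 FPKM and Nnt, a mitochondrial transhydrogenase gene, to 3.83 from 13.2 FPKM (q = 0.000372 for both, the authors' deposited table), while the kinase gene Nim1k rose to 1.14 from 0.452 FPKM (q = 0.0306, the authors' deposited table). Near Cxcl9 and Cxcl10, Scarb2, a lysosomal membrane protein gene, rose to 113 from 56.3 FPKM (q = 0.000372, the authors' deposited table). These genes were chosen after their values were seen.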
